A study of Mus musculus with 6 samples.

Results

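Activity-regulated immediate early genes are transcribed within minutes of a stimulus without new protein synthesis. The 10 followed here were Egr1, Egr2, Egr3, Egr4, Fos, Fosb, Junb, Arc, Nr4a1 and Npas4. A gene was represented by a probe set (the group of short probes that reads one transcript on the array) whose annotation gave exactly 1 symbol, equal to the gene's. Where a gene had several, the one with the highest mean over the 6 arrays was used. All 10 genes were found, on 12 probe sets, among 18193 genes measured on 34945 probe sets.

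Total RNA, labelled with biotin, came from the subventricular zone (SVZ), a neurogenic layer beside the lateral ventricle, in adult male C57BL/6 mice. In 3 samples the SVZ was taken from the lesioned side 48 h after occlusion of the middle cerebral artery (MCAO), which cuts the blood supply of the striatum and lateral cortex. The other 3 samples were taken 48 h after sham surgery, and each sample was run on 1 array. No transgene or drug is labelled in either group, and the labels do not say whether an array held 1 animal, so p-values measure the spread between these 6 samples alone, and that spread may be technical.

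In neurons, calcium entering through glutamate receptors and voltage-gated channels activates kinases that phosphorylate CREB and the SRF cofactors of the ELK family. These factors sit on the promoters of immediate early genes, CREB at cAMP response elements and SRF at CArG boxes. The induced transcripts are short-lived, and most of their products are transcription factors that switch on later genes for synapses and secreted factors.

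The upstream promoter sequences show what the genes share outside the array values. In RefSeq's annotation of GRCm38.p6, Arc and Nr4a1 both lie on chromosome 15 and the other members on a chromosome each. RefSeq windows of that build held 7 of the 10 genes in 11 windows, of which Egr2 had 5 for its alternative starts. The 250 bases before the start were searched on both strands for TGACG, the core of the cAMP response element, and for the CArG box. TGACG is also the first part of the full element, TGACGTCA. Each of the 7 genes held TGACG in at least 1 window, 9 of 11 windows in all, against 17.8% of the 32851 windows of all genes. The Egr2 windows among these overlap and hold the same sites. The member windows held 54% to 74.4% G and C, against a median of 52.4% over all windows. The part of base content in the TGACG counts was not tested. In these 250 bases the CArG box was found only at Egr2, in 4 of its 5 windows, some of which overlap, against 1.47% of all windows. Bases farther upstream were not searched, and Egr1, Egr3 and Arc had no window. The full element was in 0 of the 11 member windows and in 1.55% of all windows. The EGR site GCGNGGGCG was in 1 window each of Fosb and Nr4a1, against 4.7% of all windows. These are matches of letters in short windows and do not show binding. The sequences printed are those of Egr2 (chr10:67537619-67537868, plus strand) and Nr4a1 (chr15:101266596-101266845, plus strand), the 2 widest differences among the members, beside Fos (chr12:85473640-85473889, plus strand), the narrowest. They are written 5′ to 3′, and capitals mark TGACG on either strand and, at Egr2, the CArG box.
Egr2: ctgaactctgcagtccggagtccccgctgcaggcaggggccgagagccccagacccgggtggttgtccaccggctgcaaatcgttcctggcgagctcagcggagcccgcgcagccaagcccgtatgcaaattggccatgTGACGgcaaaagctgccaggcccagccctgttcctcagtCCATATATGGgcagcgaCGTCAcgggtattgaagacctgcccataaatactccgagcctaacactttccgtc
Nr4a1: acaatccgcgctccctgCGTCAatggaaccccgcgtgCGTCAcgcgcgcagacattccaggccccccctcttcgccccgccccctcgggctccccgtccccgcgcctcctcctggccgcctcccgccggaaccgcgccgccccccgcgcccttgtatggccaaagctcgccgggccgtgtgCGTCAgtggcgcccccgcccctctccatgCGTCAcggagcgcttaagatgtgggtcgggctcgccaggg
Fos: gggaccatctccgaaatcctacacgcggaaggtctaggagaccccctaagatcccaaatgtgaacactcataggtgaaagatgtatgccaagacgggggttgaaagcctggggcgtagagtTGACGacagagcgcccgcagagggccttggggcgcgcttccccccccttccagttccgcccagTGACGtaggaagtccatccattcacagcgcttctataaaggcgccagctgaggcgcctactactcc
In Egr2 the CArG box spans bases -72 to -63 from the start, with a TGACG on the minus strand at -55 to -51 and one on the plus strand at -111 to -107. Nr4a1 carries 4 copies of TGACG, all on the minus strand, the nearest at -40 to -36. Fos carries 2 on the plus strand, at -129 to -125 and -66 to -62, so TGACG was present both in the member with the narrowest difference and in those with the widest.

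On the arrays the mean of every one of the 10 genes was lower in MCAO than in sham, with differences between -0.85 and -0.02 on the log2 scale and a median of -0.41, although Fos turned to 0.013 on deposited values and to 0.0027 after centring the arrays on one median. Over all 18193 genes the median difference was -0.0064 and 52.3% had a lower mean in MCAO. Egr1 was the only member past an adjusted p of 0.05 (limma, Benjamini-Hochberg over all genes), and it fell. That is 1 of 10, where 0.0165% of all genes fell. None of the 10 rose, where 1.12% of all genes did. At an unadjusted p under 0.05, 5 of 10 were lower, against 2.46% of all genes, and 0 of 10 were higher, against 6.32%. In 5 genes (Egr1, Egr2, Egr4, Junb and Nr4a1) all 3 MCAO arrays lay below all 3 sham arrays, as they did in 5.37% of all genes. The reverse held for 0 of 10, against 8.43% of all genes. The 10 members were chosen with earlier results of these data known, so these shares describe the list and do not test it. In bulk tissue, fewer cells of a type and less RNA per cell cannot be told apart.

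Same-numbered samples were also compared, because the arrays of one number resembled each other across genes. The replicate block, a fit with the sample number as a term, raised the number of members that fell to 3, namely Egr1, Egr2 and Nr4a1, against 1.3% of all genes, with 0 higher against 4.82%. On deposited values with the block these 3 also fell, against 0.28% of all genes. The SE of the block fit borrows spread from other genes, and these 3 genes were themselves uneven between pairs. Same-numbered arrays of Nr4a1 lay on opposite sides of their group means for every number. Those of Egr1 and Egr2 did so for the numbers 2 and 3. Pairing thus did not narrow the spread of these 3 genes themselves, and their smaller SE with the block reflects the borrowed spread. Their pair differences ran from -0.33 to -0.64 in Egr1, -0.49 to -1.20 in Egr2 and -0.33 to -1.77 in Nr4a1. In 8 of 10 genes MCAO was lower within each of the 3 pairs, against 19.9% of all genes. The exceptions were Fos, higher in 2 pairs, and Npas4, level in the pair numbered 1. Among the members themselves, deviations from the group means had the same sign in 8, 3 and 2 of the 10 genes for the numbers 1, 2 and 3.

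One array weighed on most of these differences. Sham 3 held the highest value of all 6 arrays in 9 of the 10 genes, Egr3 being the exception, and lay above the sham mean in all 10. The mean level over the 10 genes was 8.30, 8.36 and 8.15 on MCAO 1, 2 and 3 and 8.53, 8.56 and 9.02 on sham 1, 2 and 3, so sham 3 stood above the other 2 sham arrays by more than these stood above MCAO. Without sham 3 the median difference was -0.25 and 9 of 10 genes remained lower, against 51.5% of all genes, with Fos the exception. No member passed there, where 0% of all genes fell. Without sham 3, which can only part groups further, the same 5 genes did not overlap, against 8.82% of all genes. With both arrays numbered 3 left out, an alternative chosen after seeing the data, the median was -0.23, and with the block Egr1, Egr2 and Nr4a1 passed, against 0.319% of all genes that fell. With 2 arrays a group these calls rest on the spread borrowed from other genes, and the SE was 0.087 in each of the 3.

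**Figure D1:**
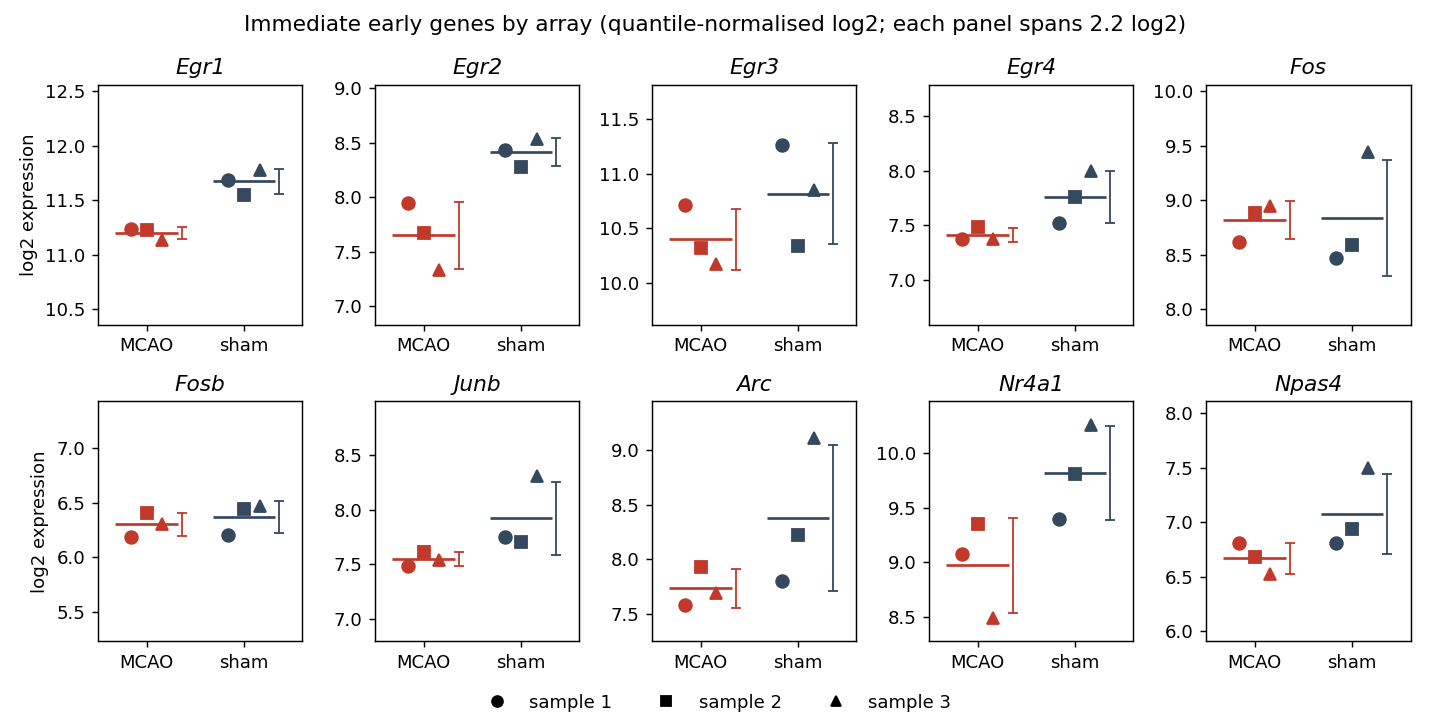
Quantile-normalised log2 expression of the 10 genes on each array, MCAO left and sham right; symbols give the sample number, lines the group means and bars the SD of 3 arrays. The groups separate in Egr1, Egr2, Egr4, Junb and Nr4a1, and the sham 3 triangle is the highest point of every panel but Egr3.

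The EGR family encodes zinc finger transcription factors that recognise a GC-rich site. Egr1, which has a high resting level in the forebrain that follows ongoing synaptic activity, read 11.24, 11.23 and 11.14 log2 on MCAO 1, 2 and 3, against 11.68, 11.55 and 11.78 on sham 1, 2 and 3. All 3 MCAO arrays were below all 3 sham arrays, and both groups were tight. The mean of Egr1 was 11.20 ± 0.06 in MCAO against 11.67 ± 0.11 in sham (SD, n = 3 each), limma's adjusted p was 0.0498, and its level in MCAO was 0.721 of that in sham. The pair differences were -0.44, -0.33 and -0.64. The difference of -0.47 ± 0.08 (SE) passed with the block (adjusted p = 0.00522) and lost its call when any 1 of the 6 arrays was left out, with -0.42 (adjusted p = 0.240) without sham 3. On deposited values Egr1 did not pass either (-0.43, adjusted p = 0.231).

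Egr2, also known as Krox20 and better known from Schwann cell myelination and hindbrain patterning, read 7.95, 7.67 and 7.33 on MCAO 1, 2 and 3, against 8.43, 8.28 and 8.53 on sham 1, 2 and 3. The groups did not overlap, and the spread was wider in MCAO, where MCAO 3 was lowest. Its difference was -0.76 ± 0.15 (SE), a level in MCAO of 0.589 of that in sham. Without the block its adjusted p was 0.0815, and it fell with it (adjusted p = 0.00362) or without MCAO 1 (adjusted p = 0.0199, with a difference of -0.91), where it was the 1 member among the 0.115% of all genes that fell. A second Egr2 probe set, which may read several transcripts of the gene, gave -0.70 ± 0.27 (SE), with its lowest value of 6.36 again on MCAO 3. On this second probe set the groups overlapped, with MCAO 1 at 7.41 above sham 2 at 7.24. The mean of the Egr2 probe sets gave -0.73 and did not pass (limma without the block, adjusted p = 0.244).

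Egr3, which is needed for muscle spindles in mice and is induced by synaptic activity, read 10.71, 10.32 and 10.17 on MCAO 1, 2 and 3, against 11.26, 10.33 and 10.85 on sham 1, 2 and 3. The groups overlapped, since sham 2 was as low as MCAO 2, and the pair differences of -0.55, -0.02 and -0.68 were uneven. Egr3 gave -0.42 ± 0.23 (SE; adjusted p = 0.752, and 0.0589 with the block), -0.19 without sham 1 and -0.66 without sham 2. Its second probe set read between 6.96 and 7.20 on every array with a difference of -0.0048 ± 0.0832, so the 2 probe sets of Egr3 did not give the same difference.

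Egr4, which male mice need for sperm maturation, read 7.38, 7.49 and 7.37 on MCAO 1, 2 and 3, against 7.52, 7.76 and 8.002 on sham 1, 2 and 3. All MCAO arrays lay below all sham arrays, and the sham arrays spread more, with sham 3 highest. The difference of -0.35 ± 0.12 (SE) did not pass (adjusted p = 0.407, and 0.0568 with the block), and it was -0.23 without sham 3.

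The orphan nuclear receptor gene Nr4a1 (Nur77), which needs no ligand and is induced by depolarisation as well as by growth factors and in immune cells, had the widest difference of the 10. It read 9.07, 9.35 and 8.49 on MCAO 1, 2 and 3, against 9.40, 9.81 and 10.26 on sham 1, 2 and 3. All MCAO arrays were below all sham arrays, but MCAO 2 and sham 1 were close. Nr4a1 averaged 8.97 ± 0.44 in MCAO and 9.82 ± 0.43 in sham (SD of 3 arrays each), a difference of -0.85 ± 0.26 (SE) and a level in MCAO of 0.554 of that in sham. Its adjusted p was 0.301 without the block, and it fell with it (adjusted p = 0.0457). The pair differences were -0.33, -0.46 and -1.77, so the third pair set much of the size: without both arrays numbered 3 the difference was -0.39, which passed with the block (adjusted p = 0.0341) and did not pass without it (adjusted p = 1.00).

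Arc encodes a postsynaptic protein that drives endocytosis of AMPA receptors and forms virus-like capsids, and it is the one member that acts at the synapse rather than on promoters. It read 7.58, 7.93 and 7.69 on MCAO 1, 2 and 3, against 7.80, 8.22 and 9.11 on sham 1, 2 and 3. The groups overlapped, since sham 1 was below MCAO 2, and sham 3 stood well above every other array. Arc gave -0.64 ± 0.30 (SE; adjusted p = 0.624, and 0.0778 with the block), and -0.28 without sham 3. Npas4, a factor that is largely restricted to neurons, responds to calcium and organises inhibitory synapses, read 6.81, 6.69 and 6.52 on MCAO 1, 2 and 3, against 6.81, 6.94 and 7.49 on sham 1, 2 and 3. MCAO 1 and sham 1 were level and sham 3 was apart from the rest. Its difference of -0.41 ± 0.18 (SE; adjusted p = 0.569, and 0.153 with the block) was -0.20 without sham 3.

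The products of the AP-1 members bind DNA as dimers. Junb, which pairs with FOS proteins and can restrain JUN, read 7.48, 7.61 and 7.54 on MCAO 1, 2 and 3, against 7.75, 7.71 and 8.31 on sham 1, 2 and 3. The groups did not overlap, with the MCAO arrays and the sham arrays 1 and 2 close together and sham 3 high. The difference of -0.38 ± 0.16 (SE) did not pass (adjusted p = 0.532, and 0.0832 with the block) and was -0.18 without sham 3.

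Fos, the most used marker of recently active neurons, read 8.62, 8.89 and 8.94 on MCAO 1, 2 and 3, against 8.47, 8.59 and 9.45 on sham 1, 2 and 3. Sham 1 and 2 were the lowest and next lowest of the 6 arrays and sham 3 the highest, so the MCAO arrays lay between sham arrays. Fos differed by -0.02 ± 0.24 (SE; adjusted p = 0.994), and by 0.29 ± 0.12 (adjusted p = 0.820) without sham 3, where its direction turned. Fosb, which encodes FOSB and the long-lived splice form ΔFOSB, read 6.19, 6.40 and 6.31 on MCAO 1, 2 and 3, against 6.20, 6.44 and 6.47 on sham 1, 2 and 3. Its groups overlapped and differed by -0.07 ± 0.10 (SE; adjusted p = 0.959), and by -0.16 without sham 1 and -0.02 without MCAO 1 or sham 3. Fosb was dim, at percentile 28.7 of all genes by sham mean, and low values may be compressed.

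**Figure D2:**
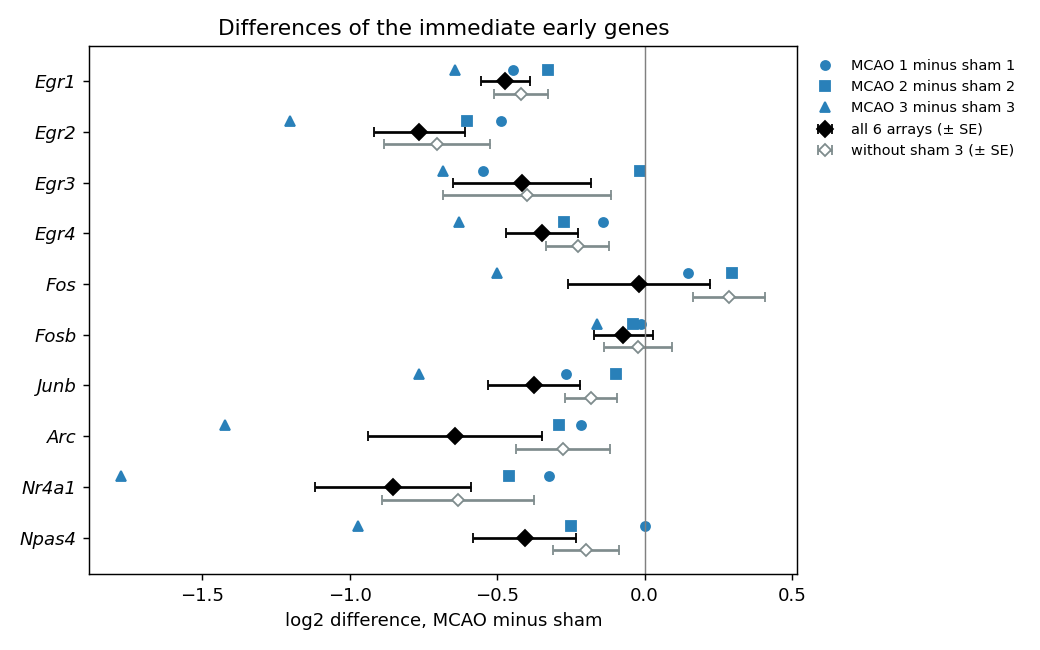
Log2 differences, MCAO minus sham, of the 10 genes: black diamonds with all 6 arrays and open diamonds without sham 3, with bars for the SE, and blue symbols for the 3 same-numbered pairs. The pair numbered 3 is the most negative in every gene, and without sham 3 the differences of Arc, Junb, Npas4 and Egr4 shrink while Fos moves to 0.29.

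Pearson's r over the 6 arrays between a gene and the mean of the other 9 was 0.96 for Npas4, 0.95 for Junb, 0.94 for Egr4, 0.91 for Nr4a1, 0.90 for Arc, 0.88 for Egr1 and 0.79 for Egr2. It was 0.52 for Fosb, 0.45 for Fos and 0.38 for Egr3. These are descriptions over 6 arrays that share 2 groups and 1 high sham array. Fos departed by its low values on sham 1 and 2, and Egr3 by its high values on both arrays numbered 1. The genes outside the list whose profile over the 6 arrays was most like the mean of the 10 were Gm29811, a predicted gene (r = 0.991), Ppp1r3g, a glycogen-targeting phosphatase subunit (0.990), the WNT5A receptor Ror2 (0.988), the sialyltransferase gene St3gal2 (0.984) and the ubiquitin ligase gene Rnf157 (0.982). None of these 5 passed (adjusted p between 0.374 and 0.819), and their differences ran from -0.30 to -0.12.

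Other early genes gave both directions: of 25, 11 had a lower and 14 a higher mean in MCAO, where 52.3% of all genes had a lower mean. At an unadjusted p under 0.05, 6.32% of all genes were higher and 2.46% lower. Of these 25 other immediate early genes, 0 passed by limma without the block, 6 were higher and 1 lower at an unadjusted p under 0.05, and the median difference was 0.06. Ccn1, a secreted matrix protein read by a probe set that may bind related transcripts, gave 7.35 ± 0.31 in MCAO against 6.53 ± 0.13 in sham (SD of 3 arrays each, limma's adjusted p = 0.0588), and rose with the block (adjusted p = 2.13e-04). The clock gene Per1, whose promoter is a CREB target, averaged 7.68 in MCAO and 7.99 in sham (difference -0.31, adjusted p = 0.207; with the block it fell, adjusted p = 0.0471). Atf3, an injury-induced repressor, averaged 6.69 in MCAO and 6.36 in sham (difference 0.32, adjusted p = 0.255, and 0.0568 with the block). With the block 4 of the 25 rose and 2 fell, where 4.82% of all genes rose and 1.3% fell. Beside Ccn1, the genes that rose were Ier3 (0.43, block adjusted p = 0.00468), Maff (0.32, 0.0357) and Zfp36 (0.32, 0.0281), all 3 named after their values were seen. Both paralogs of Nr4a1 were also named afterwards. Nr4a2 differed by -0.17 (adjusted p = 0.863, and 0.398 with the block) and was higher in MCAO in the pair numbered 3. Nr4a3, which fell with the block, differed by -0.46 (adjusted p = 0.613, and 0.00376 with the block), with 7.70, 7.89 and 7.14 on MCAO 1, 2 and 3, against 8.17, 8.23 and 7.72 on sham 1, 2 and 3. The groups of Nr4a3 overlapped, since MCAO 2 lay above sham 3, and sham 3 was its lowest sham array.

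Genes that feed back on the same pathways gave both signs. For comparison, 6.32% of all genes were higher and 2.46% lower at an unadjusted p under 0.05. Of 18 feedback inhibitors 0 passed by limma without the block (3 higher and 1 lower at an unadjusted p under 0.05; median -0.04), and 2 rose with it, against 4.82% of all genes. These were the mRNA-decay factor genes Zfp36l2 (0.43, adjusted p = 0.0718, and 0.00827 with the block) and Zfp36l1 (0.34, adjusted p = 0.182, and 0.0163 with the block). The MAP kinase phosphatase gene Dusp1, itself an immediate early gene, read 8.92, 8.93 and 8.67 on MCAO 1, 2 and 3, against 9.25, 8.97 and 9.80 on sham 1, 2 and 3. Its groups did not overlap and sham 3 was again highest, but the difference of -0.50 did not pass (adjusted p = 0.488, and 0.107 with the block).

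Medians of the signalling genes upstream and the effector genes downstream were closer to 0. Among all genes 52.3% had a lower mean, and at an unadjusted p under 0.05 the shares were 2.46% lower and 6.32% higher. Of 31 measured genes of 37 listed for signalling to these promoters, 0 passed without the block, 5 were lower and 1 higher at an unadjusted p under 0.05, and 27 had a lower mean in MCAO (median -0.09). The first by p were the calcium/calmodulin-dependent kinase gene Camk4, at -0.31 (adjusted p = 0.387, and 0.0468 with the block), Rps6ka5, which encodes the CREB and histone kinase MSK1 that acts downstream of MAP kinases, at -0.33 (adjusted p = 0.449, and 0.0165 with the block), and the transcription factor Mef2d at -0.21 (adjusted p = 0.459, and 0.113 with the block). Camk4, Rps6ka5 and the calcium/calmodulin kinase gene Camk2a, the last named after its values were seen, fell with the block, 3 of 31 against 1.3% of all genes. Of 24 neuronal activity effector genes 0 passed, 3 were lower and 0 higher at an unadjusted p under 0.05, and 18 had a lower mean (median -0.10). The G-protein regulator Rgs4 read -0.37 (adjusted p = 0.319), the secretogranin gene Scg2 -0.35 (adjusted p = 0.339) and the tachykinin precursor gene Tac1 -0.20 (adjusted p = 0.510). Rgs4 and Scg2 fell with the block (adjusted p = 0.0156 and 0.0161), 2 of 24 against 1.3% of all genes.

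**Figure D3:**
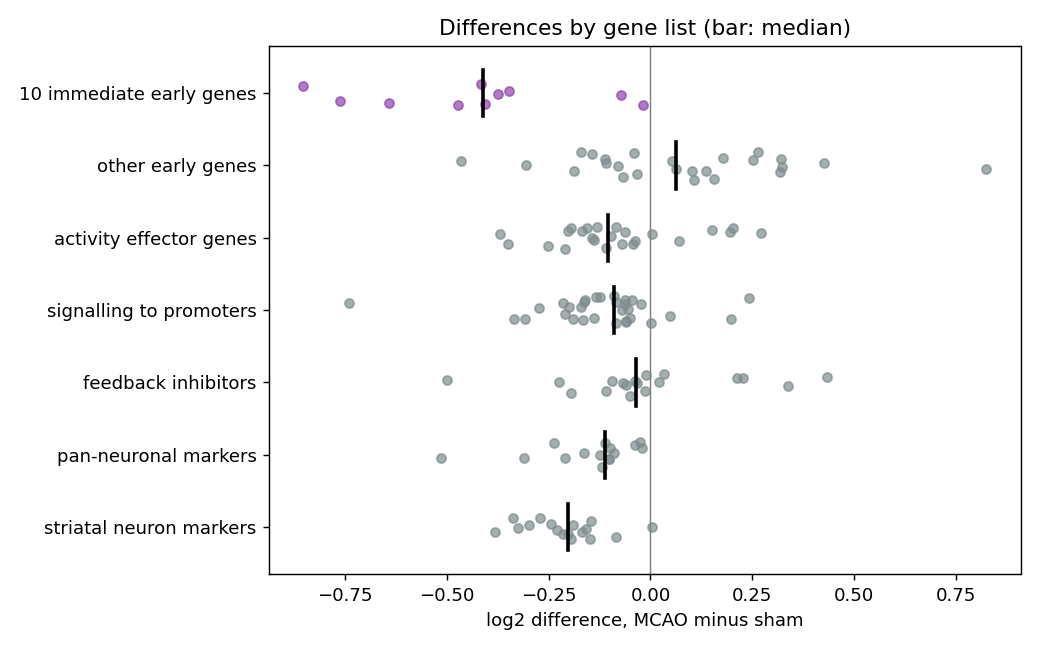
Log2 differences, MCAO minus sham, of every measured gene in 7 lists, 1 dot per gene with a black bar at the median. The median is -0.41 for the 10 immediate early genes, 0.06 for other early genes, -0.10 for activity effector genes, -0.09 for signalling genes, -0.04 for feedback inhibitors, -0.11 for pan-neuronal and -0.20 for striatal neuron markers.

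Markers of neurons, the main source of several of these transcripts in the resting brain, had lower means in the same arrays. A lower mean was found in 52.3% of all genes, and at an unadjusted p under 0.05 the shares were 2.46% lower and 6.32% higher. All 15 pan-neuronal markers had a lower mean in MCAO, with a median of -0.11, and 0 passed without the block (4 lower and 0 higher at an unadjusted p under 0.05). Their mean level ran from 9.92 to 10.14 in MCAO and from 10.08 to 10.34 in sham, with sham 3 highest. The neurofilament genes Nefm and Nefl read -0.51 (adjusted p = 0.122) and -0.31 (adjusted p = 0.275), and both fell with the block (adjusted p = 0.00279 and 0.0251), 2 of 15 against 1.3% of all genes. Of 17 striatal projection neuron markers 16 had a lower mean (median -0.20; 5 lower and 0 higher at an unadjusted p under 0.05), 0 passed, and their mean level ran from 10.99 to 11.15 in MCAO and from 11.24 to 11.40 in sham, again with sham 3 highest. The dopamine receptor gene Drd1 and the adenylyl cyclase gene Adcy5 read -0.34 (adjusted p = 0.101) and -0.27 (adjusted p = 0.356), and fell with the block among 4 of 17 that did, against 1.3% of all genes. Of 12 markers of excitatory neurons 11 had a lower mean (median -0.10; range of the mean level 7.20 to 7.40 in MCAO and 7.39 to 7.58 in sham) and 0 passed, with Camk2a at -0.74 (adjusted p = 0.481) and Cux2 at -0.15 (adjusted p = 0.727) first by p. With the block 2 of the 12 fell, against 1.3% of all genes: Camk2a (adjusted p = 0.0291) and Rorb, named after its values were seen, at -0.51 (adjusted p = 0.00561). Camk2a is also in the signalling list. Only 5 of the 12 lay above the median of all genes by sham mean, and low values may be compressed. The part of neuron content in the differences of the 10 genes was not tested.

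Other cell types differed in other ways. Of 13 reactive astrocyte markers 7 rose, and 10 with the block (median 1.51; Cd44 by 1.97 and S1pr3 by 2.01), with a mean level of 8.33 to 8.84 in MCAO and 6.94 to 7.24 in sham. Of 18 markers of microglia and other phagocytes 11 rose, and 17 with the block (median 1.09; Fcgr1 by 1.35 and Cd14 by 0.95), with a mean level of 8.83 to 9.31 in MCAO and 8.06 to 8.13 in sham. Of all genes 1.12% rose, and 4.82% with the block. None of 13 neuroblast markers passed without the block (median 0.11; Dlx6 -0.33, Cd24a 0.66; mean level 8.97 to 9.23 in MCAO and 8.89 to 9.07 in sham), and 1, Cd24a, rose with it (adjusted p = 0.00465). Brightness differs between probe sets, so these levels were not used to call a cell type present or absent. Without the block, none passed of 11 oligodendrocyte markers (median -0.11; Aspa -0.26, Mbp -0.11), 9 endothelial markers (median 0.09; Cldn5 0.28, Esam 0.23), 10 ependymal markers (median 0.18; Foxj1 0.25, Dnah11 0.13) or 9 choroid plexus markers (median 0.04; Ttr -0.28, Clic6 -0.19). With the block 1 of these markers rose, the ependymal Rarres2, named after its values were seen, at 0.30 (adjusted p = 0.0364). At an unadjusted p under 0.05 these 5 lists held 1 lower and 1 higher neuroblast marker, 2 higher endothelial markers and 0 in the other 3. Of all genes 2.46% were lower and 6.32% higher at that p. The ependymal mean level was highest on MCAO 2 and sham 2, at 8.18 and 8.10, against 7.75 and 7.81 on the other MCAO arrays and 7.61 and 7.52 on the other sham arrays. The part of these cells in the values of the 10 genes was not tested.

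**Figure D4:**
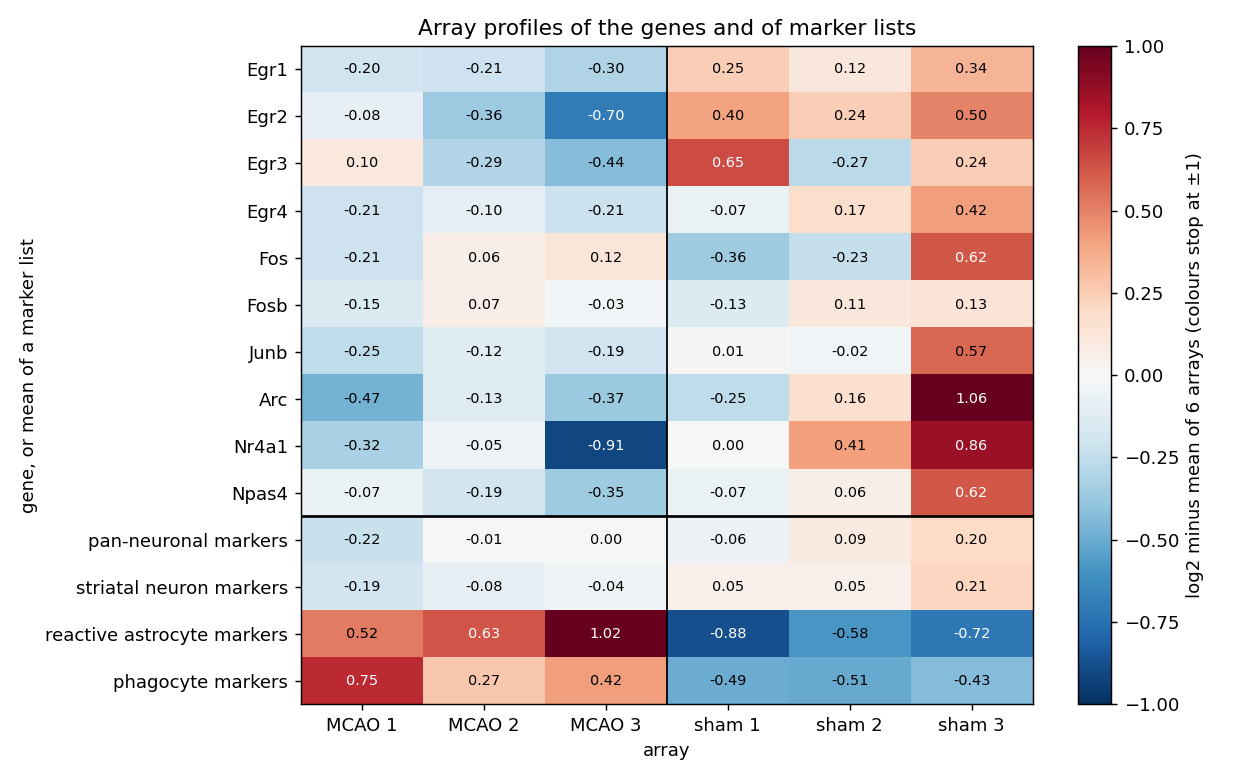
Log2 value of each gene, and of the mean of 4 marker lists, on each array minus its mean over the 6 arrays, with MCAO left and sham right; red is higher and blue lower. Arc at 1.06 and Nr4a1 at 0.86 on sham 3 are the highest cells of the 10 genes, while pan-neuronal markers read 0.20 there.

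Over the whole series, 206 of 18193 genes passed, 203 of them higher in MCAO and 3 lower. The arrays numbered 1 stood apart on a principal component with 40.8% of the variance, and MCAO and sham separated on one with 33.8%. The 27 control probe sets for spiked-in poly-A RNA averaged 7.46 on MCAO 1 and 7.71 on sham 1, against 8.33 to 8.83 on the other 4 arrays, in deposited values. Sham 3, at 8.53, was within the range of the other 3.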

How the data were processed

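Each of 6 arrays was hybridised with biotin-labelled SVZ total RNA, 3 MCAO and 3 sham. The deposited values are log2 expression per probe set for 45101 probe sets, including 64 controls. How the authors corrected background, summarised probes and normalised arrays is not given in the sources used here. Low values may be compressed. Array medians agreed within 0.03 but 90th percentiles ran from 8.85 to 9.06, over 0.1 apart, so quantile normalization was added.

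Genes were taken from probe sets with 1 symbol in the platform annotation (34958, controls included; 932 had several and 9211 none). Group differences were tested 2-sided with lmFit and eBayes of limma 3.58.1 (R 4.3.3), with Benjamini-Hochberg adjustment over all 18193 genes. Differences are MCAO minus sham, with moderated SE. A permutation test of 3 against 3 cannot go below p = 0.1. The number of arrays limits the precision. The fit without the block was tested on simulated data with independent noise on each array. The fit with the block was not tested in this way.

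Between same-numbered arrays, deviations from group means had correlations of 0.77, 0.44 and 0.48 over all genes, so the sample numbers, whose meaning the labels do not give, were taken to pair the samples. The deviations within a group cancel out, so the correlations of numbers 2 and 3 depend in part on number 1. The pairing was thus taken from the same data that the block fit tests. Alternatives covered normalization, the replicate block, variance models, probe set choice, a filter on dim genes and left-out arrays. The 10 members and all gene lists were chosen with earlier results of these data known. Named genes are the members, the 3 of each pathway list and 2 of each marker list with the smallest p, and the 5 of most similar profile; others are said to be named afterwards. RefSeq promoters were searched with Python 3.11.15. Egr1, Egr3 and Arc promoters were not used here.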

Additional observations from a re-analysis of the deposited data

How the results depend on the processing

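The number of members that fell was 1 in the fit reported. It was 0 on deposited values, after centring arrays on one median and with both arrays numbered 3 left out, where 0% of all genes fell. With robust variance it was also 0, where 0.0055% of all genes fell. With dimmer genes left out it was also 0 (8 members tested, without Fosb and Npas4), against 0.011% of the genes kept. The number was 3 with the replicate block, alone, on the values as deposited, or with both arrays numbered 3 left out. There 1.3%, 0.28% and 0.319% of all genes fell, in that order. With each array left out in turn the number of members ran from 0 to 1. The 1 was Egr2 without MCAO 1, where 0.115% of all genes fell. Without any 1 of the other arrays 0% to 0.011% fell. With an intensity trend (adjusted p = 0.0493) or both arrays numbered 1 left out (0.0188) the 1 was also Egr2, and with the mean of probe sets (0.0359) or without _s_at, _x_at and _a_at probe sets (0.0480) it was Egr1. The shares of all genes tested that fell were 0.0165%, 0.143%, 0.022% and 0.0181%, in that order. No member rose under any of the 18 alternatives, where 0% to 4.82% of all genes did.

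Over all genes, the 206 past the threshold became 1113 with the block, 817 with the block on deposited values, 648 with the block and 0 without it when both arrays numbered 3 were left out, and 44 to 209 with single arrays left out, lowest without sham 3. Of 178 member values under alternatives, 7 changed sign, all of Fos: 0.013 on deposited values (with and without the block), 0.0027 on one median, and 0.08 without MCAO 1; with single arrays left out Fos ran from -0.20 to 0.29 (without sham 3), and it was 0.22 without both arrays numbered 3 (with and without the block). The median difference stayed between -0.51 and -0.23. With 2 arrays a group, calls rest on the spread borrowed from other genes. Calls with the block rest on it in part.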
